A study of Mus musculus with 6 samples.

Results

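The 10 genes examined encode the enzymes and transporters with which the liver makes glucose and releases it into the blood: Pcx, Pck1, Pck2, Fbp1, G6pc, G6pc3, Slc37a4, Slc2a2, Sds and Gpt. They were chosen by function, out of 20284 genes that could be named on the array, and every probe whose accession belongs to one of them in RefSeq GRCm38.p6 was used, 11 probes in all. Of these, 10 probes for 9 genes were bright enough to be tested, and Pck2 was not. The 6 livers came from 3 male Gα12 knockout (KO) mice and 3 male wild-type (WT) mice, both of mixed C57BL/6 and 129/Sv descent with 95% C57BL/6 background. All were 8 weeks old, ate chow freely and were fasted overnight before the liver was taken, so every value below is from a fasted liver and none from a fed one. Gα12, encoded by Gna12, is a G protein α subunit that relays signals from cell surface receptors. The deleted part of the gene is not named in the labels, nor is any tissue restriction of the deletion. The study compared the KO livers with the WT livers to find genes whose expression differed.

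In a fasting animal the liver keeps blood glucose up, first from glycogen and then by gluconeogenesis, the synthesis of glucose from lactate, glycerol and amino acids. Pyruvate carboxylase (Pcx) and a phosphoenolpyruvate carboxykinase (Pck1 in the cytosol, Pck2 in mitochondria) carry pyruvate around the irreversible last step of glycolysis, and fructose-1,6-bisphosphatase (Fbp1) and glucose-6-phosphatase (G6pc) bypass the other irreversible steps. The final reaction takes place inside the endoplasmic reticulum, which glucose 6-phosphate enters through the transporter Slc37a4, and glucose can leave the hepatocyte through Slc2a2 (GLUT2). Fasting hormones, glucagon and glucocorticoids, induce Pck1 and G6pc in liver, and insulin represses them.

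The upstream sequences of Pck1, G6pc and Slc2a2 are shown because these genes, the classic hormone-regulated enzymes and the exporter, are the ones whose relative levels are set against each other below. They are the 250 bases before the annotated start, 5′ to 3′ on the strand of the gene, from RefSeq GRCm38.p6, with 4 searched motifs in capitals.
Pck1: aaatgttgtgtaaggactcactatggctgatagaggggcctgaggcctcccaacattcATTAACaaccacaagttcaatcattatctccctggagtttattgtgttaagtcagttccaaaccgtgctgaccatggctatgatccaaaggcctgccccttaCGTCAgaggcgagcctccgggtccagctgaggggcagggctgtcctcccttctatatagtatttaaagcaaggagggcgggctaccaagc
G6pc: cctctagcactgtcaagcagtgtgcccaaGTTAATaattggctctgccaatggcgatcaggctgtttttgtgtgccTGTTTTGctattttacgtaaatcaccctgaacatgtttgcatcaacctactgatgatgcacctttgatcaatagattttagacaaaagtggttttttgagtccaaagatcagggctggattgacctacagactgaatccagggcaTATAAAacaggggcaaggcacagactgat
Slc2a2: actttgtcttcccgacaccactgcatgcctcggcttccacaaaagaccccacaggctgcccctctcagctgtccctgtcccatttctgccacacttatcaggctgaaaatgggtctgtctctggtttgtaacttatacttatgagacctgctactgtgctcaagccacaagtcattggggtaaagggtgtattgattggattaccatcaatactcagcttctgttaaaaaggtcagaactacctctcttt

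The Pck1 sequence lies at chr2:173152823-173153072 on the plus strand, the G6pc sequence at chr11:101367466-101367715 on the plus strand and the Slc2a2 sequence at chr3:28697653-28697902 on the plus strand. The motifs were searched on both strands by their letters alone: the core of the cyclic AMP response element (TGACG), the core of the insulin response element (CAAAACA), part of the site of hepatocyte nuclear factor 1 (GTTAAT) and the TATA box (TATAAA). Among 32851 RefSeq promoters of the same length, 17.8% held the first, 5.56% the second, 6.43% the third and 12.4% the TATA box. Pck1 held TGACG on the opposite strand at bases -90 to -86 and GTTAAT on the opposite strand at bases -192 to -187. G6pc held GTTAAT at -221 to -216, CAAAACA on the opposite strand at -174 to -168 and TATAAA at -29 to -24. None of the 4 was found in the Slc2a2 window. These hits do not overlap each other, and each is a match of letters only. RefSeq entries were matched for 8 of the 10 genes, all but Sds and Gpt, in 11 windows. Slc37a4 held TGACG in the windows of its first starts and TATAAA in that of a later one, and Pck2 held CAAAACA on the opposite strand at -159 to -153.

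The arrays report fluorescence of Cy3-labelled RNA copies on probes. Levels below are the log2 of a spot's processed intensity minus the 75th percentile of the array (log2), so that 0 is the 75th percentile and a difference of 1 is a 2-fold one. A level is not comparable between probes, and only differences of 1 probe between livers, or changes in the ratio of probes, are interpreted. Of the 55681 probes, 20953 to 22585 were well above background on the KO arrays and 22951 to 28752 on the WT arrays. All 7 measured hepatocyte markers, including Alb and Ttr, were above background, and their summed level was 12.18 to 12.58 on KO arrays and 11.94 to 12.75 on WT arrays. Summed markers of sinusoidal endothelium (5 genes) were 6.15 to 6.31 on KO arrays and 6.47 to 7.10 on WT arrays, and those of stellate cells (5 genes) 5.98 to 6.25 on KO arrays and 6.38 to 7.15 on WT arrays, in both lists lower on every KO array. The brightest genes, Clec4g and Dcn, weigh most in these sums. Of the genes kept for testing, 3 of 5 endothelial and 2 of 4 stellate ones were lower on every KO array, against 21.1% of all genes. Endothelial Pecam1 (0.18) and stellate Des (1.28) and Reln were higher in KO on average, Des and Reln being dim. The summed Kupffer, cholangiocyte and lymphocyte markers overlapped between the groups. Kidney, which also makes glucose, was covered by 4 markers, whose summed level was -1.08 to 4.21 on KO arrays and -1.61 to -0.25 on WT arrays. Of these, Umod read 1.07, 4.19 and -4.66 on KO arrays, against -4.49, -5.00 and -4.04 on WT arrays. The other kidney markers did not follow it, but gave few readings above background. Slc22a6, the only one kept for testing, differed by -0.09 and was above background on 1 KO array and 3 WT arrays. Slc12a1 differed by -1.07 and was above background on 1 array only, WT replicate 2 at -0.66. Kap was not above background on any array. Summed muscle markers (5 genes) were -1.40 to 2.21 on KO arrays and -2.25 to -1.31 on WT arrays. All 3 muscle markers kept for testing were higher in KO on average, with a median difference of 2.58 that was 1.34 against WT replicate 3 alone, and Ckm was not above background on any array. The part of these cell types in the results below was not tested. In whole liver, fewer cells of a type and less RNA per cell cannot be told apart. The probe for Gna12 read -4.91, -4.62 and -3.47 on KO arrays, against -3.48, -4.55 and -0.89 on WT arrays, and was well above background on WT replicate 3 alone, so it is a weak check of the genotype.

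WT replicates 1 and 2 stood apart from the other 4 arrays. Over all kept probes, WT replicate 3 correlated with the KO arrays at r = 0.966 to 0.982, against 0.897 with WT replicate 1 and 0.933 with WT replicate 2, while WT replicates 1 and 2 correlated at 0.973 with each other. For 8 of the 9 tested gluconeogenic genes, WT replicate 3 lay nearer to the KO mean than to the mean of the other WT livers, as it did for 84.4% of all genes. The exception was G6pc. The difference of each of the 9 genes is therefore given also without WT replicate 3 and without WT replicates 1 and 2. In addition, all KO arrays lay in one row of the slide and all WT arrays in the other, and the row of the slide and the genotype cannot be told apart.

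None of the 9 genes differed between genotypes past the threshold. In limma's fit over 23132 probes, 0 of 9 genes and 0% of all 12297 genes had an adjusted p below 0.05. With the unadjusted p below 0.05 there were again 0 of the 9 genes, against 21% of probes and 20.6% of genes over the whole array (16.6% lower and 3.98% higher in KO). The difference, KO minus WT, was below 0 for 6 of the 9 genes and for 72.3% of all genes. Its median was -0.46 over the 9 genes and -0.49 over all 12297 genes. The 3 KO values lay wholly outside the range of the WT values for 4 of the 9 genes, lower for G6pc, Pcx and Slc2a2 and higher for Sds, against 25.5% of all genes (21.1% lower and 4.42% higher). The median of the 9 genes was thus no further from 0 than that of the whole array. The count of 4 depended on the processing: it was 2 with normexp background correction (25.7% of all genes), 1 with quantile normalization (25.5%) and 2 with scaling to the 75th percentile of probes above background on all arrays (23.3%), an alternative chosen after seeing the data.

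**Figure D1:**
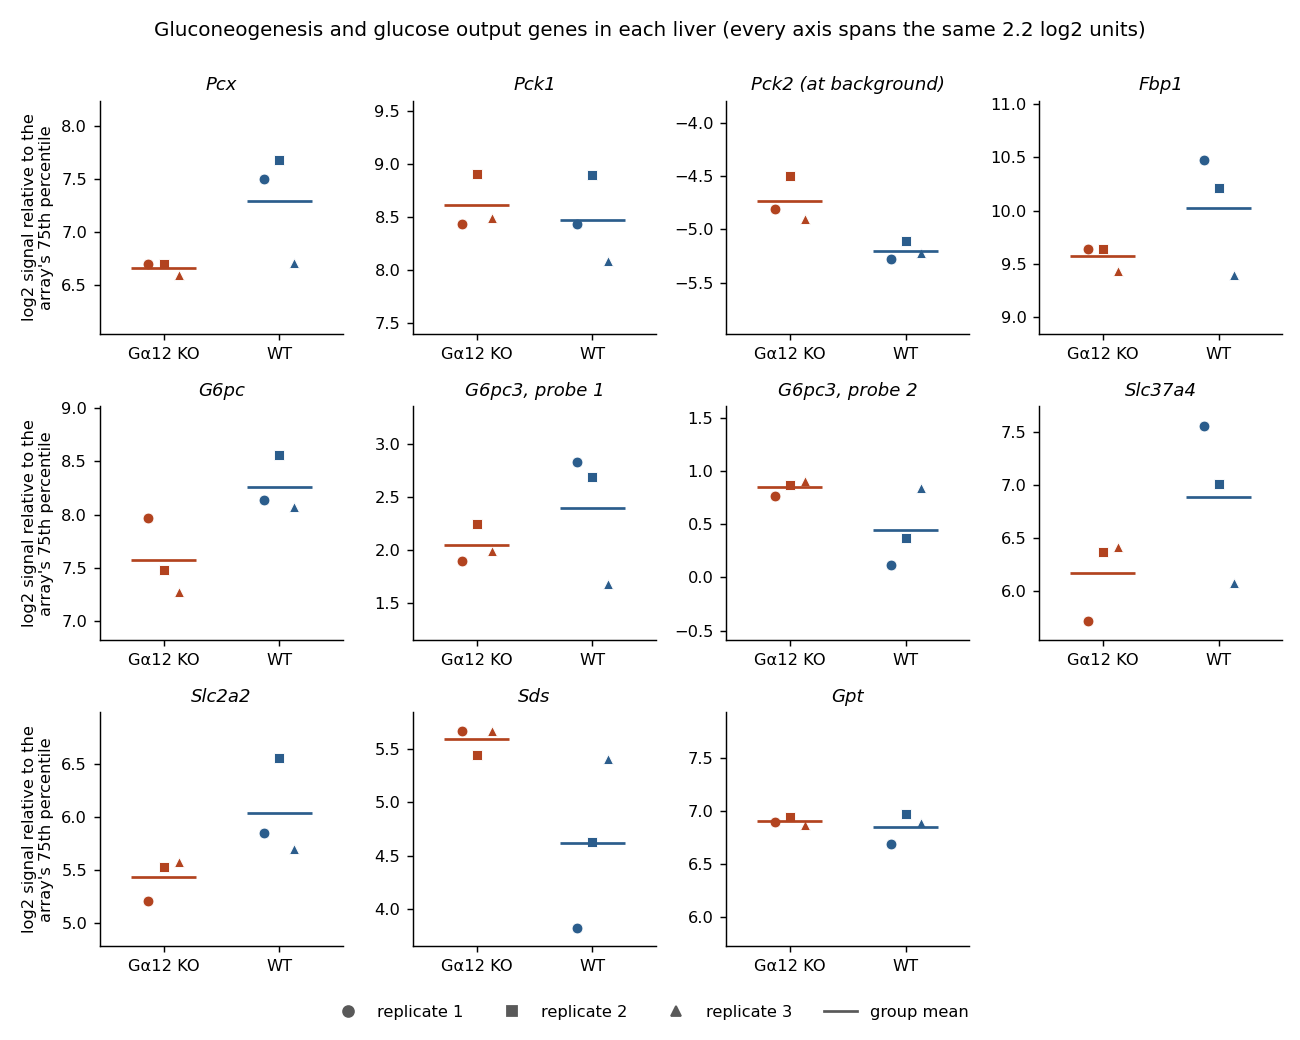
Log2 signal of each of the 11 probes in each liver, relative to the array's 75th percentile, for Gα12 KO (left, red) and WT (right, blue). Points are single livers, shaped by replicate number, and the bar is the group mean. KO and WT values are separate for Pcx, G6pc, Slc2a2 and Sds, for Pcx only narrowly. Pck2 also separates, but at background.

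Pyruvate carboxylase, which makes oxaloacetate from pyruvate in mitochondria, was measured by 1 probe for Pcx (chr19:4510472-4621752). Its level was 6.70, 6.70 and 6.60 in KO livers, against 7.51, 7.68 and 6.71 in WT livers. WT replicates 1 and 2 were high, and WT replicate 3 sat just above the KO livers. The means were 6.67 ± 0.06 in KO and 7.30 ± 0.52 in WT (SD, n = 3 each), a difference of -0.63 (SE 0.36, 95% interval -1.47 to 0.20, limma adjusted p = 0.28). Without WT replicate 3 the difference was -0.93 (limma adjusted p = 0.0106), and without WT replicates 1 and 2 it was -0.04.

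Pck1 (chr2:173153073-173159274), which turns oxaloacetate into phosphoenolpyruvate and is strongly induced by fasting, had levels of 8.44, 8.91 and 8.49 in KO livers, against 8.44, 8.89 and 8.09 in WT livers. At this scaling the groups overlapped almost wholly, and replicate 2 was the highest liver in each. The means were 8.61 ± 0.26 in KO and 8.47 ± 0.41 in WT (SD, n = 3 each), with a difference of 0.14 (SE 0.35, 95% interval -0.67 to 0.95, limma adjusted p = 0.789). On a linear scale this interval runs from 0.628-fold to 1.93-fold of the WT level, and it holds both lower and higher values. The sign of the Pck1 difference turned without WT replicate 3, to -0.05, and without KO replicate 2, to -0.01. Without WT replicates 1 and 2 it was 0.53. It also moved with the scaling, to 0.58 with quantile normalization (limma adjusted p = 0.296) and 0.61 with the percentile of probes above background on all arrays (limma adjusted p = 0.309). In the last setting all KO livers lay above all WT livers, where the groups did not overlap for 23.3% of all genes in either direction. The same held without WT replicate 2 (28.3% of all genes), but only by 8.437 in KO replicate 1 against 8.436 in WT replicate 1. Against the median difference of all genes, Pck1 stood 0.63 higher.

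Pck2, the mitochondrial form, was printed on 10 spots of each array and was not well above background on any. Its averaged signal was -4.81, -4.49 and -4.90 on KO arrays, against -5.28, -5.11 and -5.22 on WT arrays. The lowest signal marked as well above background was between -4.97 and -4.63 on the KO arrays and between -6.01 and -5.25 on the WT arrays, so the order of the Pck2 values gives no difference in expression, and no fold is given.

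Fbp1 (chr13:62864753-62888298), which removes a phosphate from fructose 1,6-bisphosphate, had levels of 9.64, 9.64 and 9.44 in KO livers, against 10.48, 10.21 and 9.39 in WT livers. The KO livers lay between WT replicate 3 and the other WT livers, so the groups overlapped. The difference was -0.46 (SE 0.37, 95% interval -1.33 to 0.41, limma adjusted p = 0.407). It was -0.78 without WT replicate 3 (limma adjusted p = 0.0227) and 0.18 without WT replicates 1 and 2, so its sign depended on which WT livers were used.

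G6pc (chr11:101367716-101377903), the liver's glucose-6-phosphatase and the enzyme of the last step of both gluconeogenesis and glycogen breakdown, had levels of 7.97, 7.48 and 7.27 in KO livers, against 8.13, 8.56 and 8.08 in WT livers. All KO livers were below all WT livers, and the SD of the WT livers was the smallest among the 9 genes but for Gpt. The means were 7.57 ± 0.35 in KO and 8.26 ± 0.27 in WT (SD, n = 3 each). The difference was -0.68 (SE 0.34, 95% interval -1.47 to 0.11), a KO signal 0.623 times that of WT, and it did not pass the threshold (limma adjusted p = 0.25). It was -0.77 without WT replicate 3 (limma adjusted p = 0.0654) and -0.50 without WT replicates 1 and 2 (limma adjusted p = 0.711, with the lone WT liver assumed to vary like the KO livers). Across the 18 alternative settings the G6pc difference was below 0 each time, between -0.88 and -0.18, and passed the threshold in none. Settings that changed only the filter, the outlier or probe rule, the variance model or the block could not move it from -0.68. The smallest sizes came with quantile normalization (-0.18) and with the percentile of probes above background on all arrays (-0.21). The median difference of all genes was also below 0 in every setting. Against that median, G6pc stood at -0.19, and ran from -0.61 with no filter on dim probes to 0.03 with quantile normalization. Its constant sign is thus shared with the array as a whole.

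G6pc3, the broadly expressed phosphatase of the same family, was the only one of the 10 genes with several probes, and they disagreed. The first probe read 1.89, 2.24 and 1.99 on KO arrays, against 2.82, 2.68 and 1.68 on WT arrays. The second read 0.77, 0.87 and 0.90 on KO arrays, against 0.12, 0.38 and 0.84 on WT arrays. On WT replicates 1 and 2 the first probe was at its highest and the second at its lowest, so the same gene differed by -0.35 (95% interval -1.27 to 0.57, limma adjusted p = 0.537) with one probe and by 0.40 (95% interval -0.35 to 1.16, limma adjusted p = 0.401) with the other. The sources used here do not place either probe on the transcript.

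The gap between the 2 G6pc3 probes was 1.12, 1.37 and 1.09 on KO arrays, against 2.71, 2.31 and 0.83 on WT arrays, wide on WT replicates 1 and 2 alone. Gapdh, a glycolytic enzyme gene with 7 probes, divided the arrays the same way: its highest and lowest probe were 4.82, 4.87 and 4.36 apart on KO arrays and 9.58, 7.79 and 4.01 apart on WT arrays. WT replicate 3 again lay with the KO arrays. For the 8 other tested genes, each read by 1 probe, no second probe was there to compare, and the part of the probe in their differences was not tested.

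**Figure D2:**
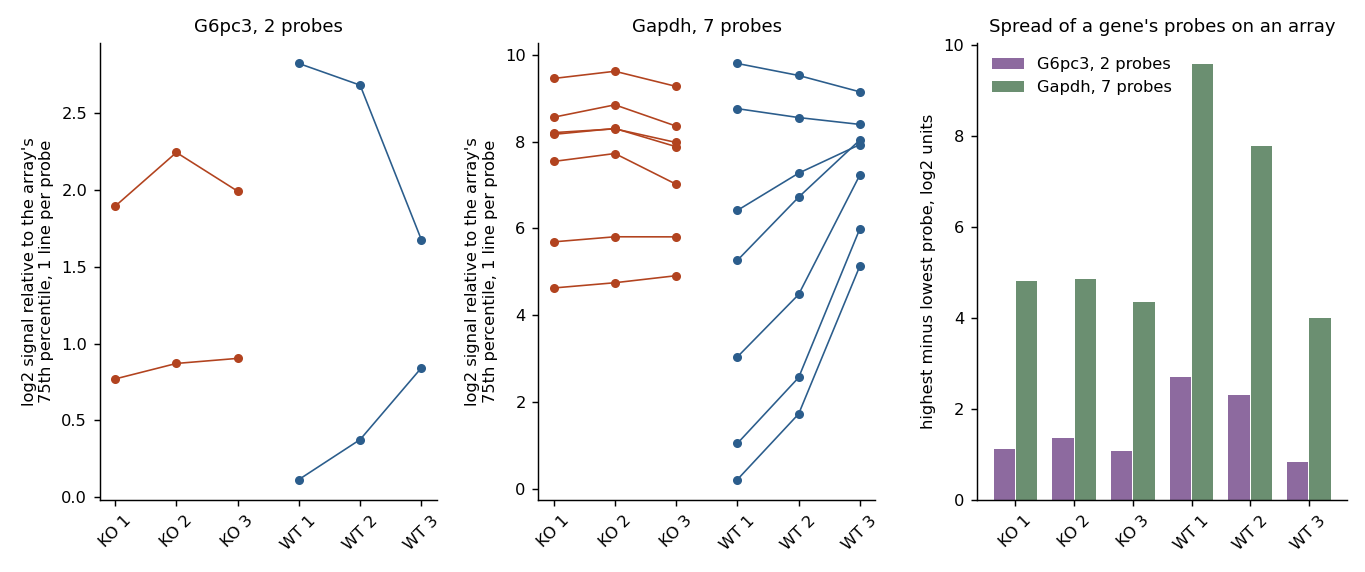
Left and centre, log2 signal of the 2 G6pc3 probes and the 7 Gapdh probes on each array, relative to the array's 75th percentile, with a line per probe (red, Gα12 KO; blue, WT). Right, the gap between a gene's highest and lowest probe on each array. The gaps are widest on WT replicates 1 and 2, at 2.71 and 2.31 for G6pc3 and at 9.58 and 7.79 for Gapdh.

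Slc37a4 (chr9:44396946-44402966), which carries glucose 6-phosphate to the phosphatase, had levels of 5.72, 6.37 and 6.41 in KO livers, against 7.56, 7.01 and 6.07 in WT livers. WT replicates 1 and 2 were above all KO livers and WT replicate 3 was within their range. Its difference of -0.71 (SE 0.45, 95% interval -1.77 to 0.34, limma adjusted p = 0.313) was the largest negative one of the 9 genes and also had the widest interval. Without WT replicate 3 it was -1.12 (limma adjusted p = 0.0292), and without WT replicates 1 and 2 it was 0.09.

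Slc2a2 (chr3:28697903-28728361), which encodes the GLUT2 glucose transporter of the hepatocyte membrane, had levels of 5.21, 5.53 and 5.57 in KO livers, against 5.84, 6.55 and 5.70 in WT livers. All KO livers were below all WT livers, and WT replicate 3 lay closest to them. The means were 5.44 ± 0.20 in KO and 6.03 ± 0.46 in WT (SD, n = 3 each), and the difference was -0.59 (SE 0.35, 95% interval -1.42 to 0.23, limma adjusted p = 0.293). It was -0.76 without WT replicate 3 (limma adjusted p = 0.0665) and -0.26 without WT replicates 1 and 2. In all 18 alternative settings it was below 0, between -0.76 and -0.12, the last with quantile normalization and with the percentile of probes above background on all arrays. As for G6pc, several of these settings could not move it from -0.59. The median difference of all genes was also below 0 in every setting. Against that median, Slc2a2 stood at -0.10, and ran from -0.52 with no filter on dim probes to 0.09 with quantile normalization. It was also above the median without KO replicate 1 (0.02) and without WT replicate 2 (0.05).

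Serine dehydratase (Sds, chr5:120476547-120483932), which turns serine into pyruvate and is induced in fasted liver, had levels of 5.67, 5.45 and 5.67 in KO livers, against 3.82, 4.63 and 5.41 in WT livers. All KO livers were above all WT livers, WT replicate 1 being the lowest and WT replicate 3 nearly level with KO replicate 2. The means were 5.60 ± 0.13 in KO and 4.62 ± 0.79 in WT (SD, n = 3 each), a difference of 0.98 (SE 0.44, 95% interval -0.05 to 2.002, limma adjusted p = 0.239), or 1.97-fold. Without WT replicate 3 it was 1.37 (limma adjusted p = 0.0128), and without WT replicates 1 and 2 it was 0.19. In the 18 alternative settings it was above 0 each time, between 0.19 and 1.45. As for G6pc, several of these settings could not move it from 0.98.

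Gpt (chr15:76696726-76699675), the alanine aminotransferase that links alanine to pyruvate, had levels of 6.90, 6.94 and 6.87 in KO livers, against 6.68, 6.97 and 6.89 in WT livers. At this scaling the livers were nearly level, and the groups overlapped. The difference was 0.06 (SE 0.29, 95% interval -0.62 to 0.73, limma adjusted p = 0.904), and without WT replicate 1 it was -0.03. It was 0.08 without WT replicate 3 (limma adjusted p = 0.76) and 0.01 without WT replicates 1 and 2. It was 0.56 with quantile normalization (limma adjusted p = 0.344) and 0.53 with the percentile of probes above background on all arrays (limma adjusted p = 0.333), and with scaling to the array median all KO livers lay above all WT livers (0.19, limma adjusted p = 0.647). Its SD in KO livers, 0.03, was the smallest of any tested probe of the 10 genes.

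Leaving out WT replicate 3 changed which genes passed. Then 5 of the 9 genes had a limma adjusted p below 0.05, with Pcx, Slc37a4, Fbp1 and G6pc3 lower and Sds higher in KO, against 62.2% of all genes (50.6% lower and 11.5% higher) and 56.7% of all probes, a share the 9 genes did not exceed. The groups then did not overlap for 7 of the 9 genes, against 78.8% of all genes. With WT replicates 1 and 2 left out instead, 0 of the 9 genes passed and the lowest limma adjusted p was 0.683. With the unadjusted p below 0.05 there were then 6.78% of all genes, and the median difference was 0.09 over the 9 genes and -0.03 over all genes. The spread between the WT livers was wide for most of the genes: the median SD of the 9 genes was 0.18 in KO livers and 0.52 in WT livers, against 0.19 in KO and 0.65 in WT over all genes.

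**Figure D3:**
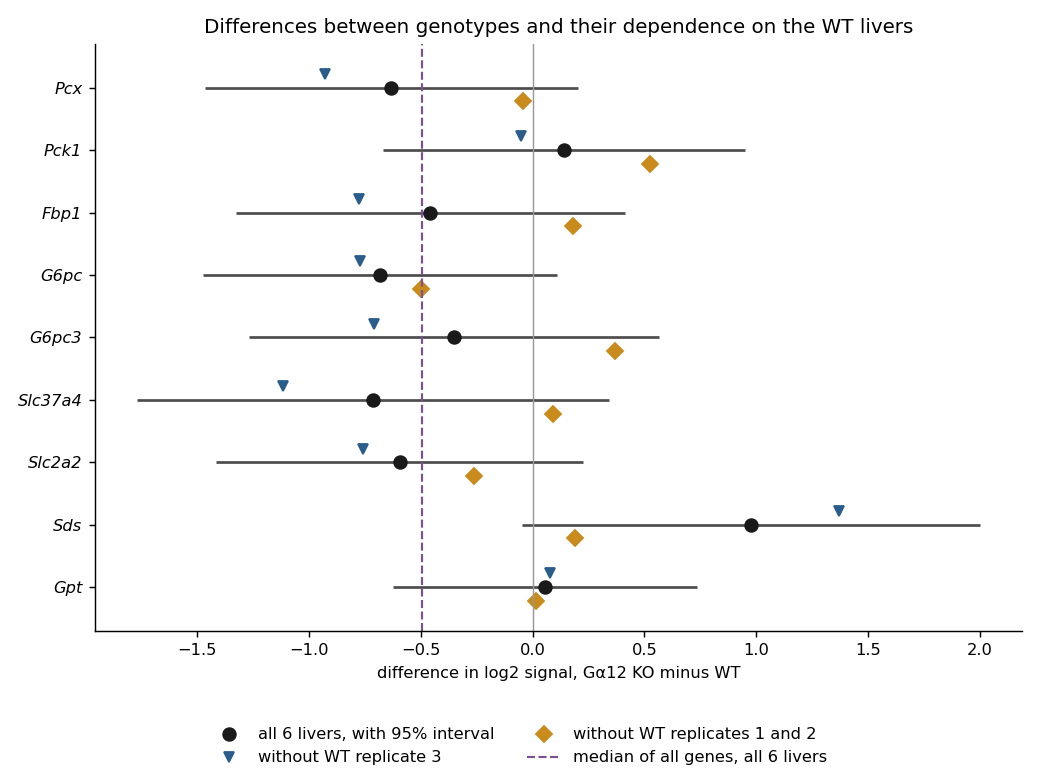
Difference in log2 signal, Gα12 KO minus WT, of the 9 tested genes over all 6 livers (black, with 95% interval), without WT replicate 3 (blue triangles) and without WT replicates 1 and 2 (yellow diamonds). The dashed line is the median of all 12297 genes at -0.49. Every interval includes 0, and among the genes below 0, G6pc keeps the most of its difference without WT replicates 1 and 2, at -0.50 of -0.68.

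Ratios between the genes of 1 array do not depend on a scaling by 1 constant per array, so G6pc and Slc2a2 were set against Pck1, and G6pc against Sds. These 3 ratios were chosen after their values were seen, and because they separate the groups, so they are described here with no test. A ratio does not say which of its genes differed: relative to the median difference of all genes, Pck1 stood at 0.63, Sds at 1.47, G6pc at -0.19 and Slc2a2 at -0.10, so most of each gap lay with Pck1 or Sds on that scale. The log2 ratio of G6pc to Pck1 was -0.47, -1.43 and -1.22 in KO livers, against -0.30, -0.33 and -0.01 in WT livers. The G6pc signal was thus lower relative to Pck1 in every KO liver than in any WT liver, with WT replicate 3 the highest of all, and the means were -1.04 ± 0.50 in KO and -0.22 ± 0.18 in WT (SD, n = 3 each). The difference was -0.82, and -0.72 without WT replicate 3.

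The ratio of Slc2a2 to Pck1 divided the livers likewise. It was -3.23, -3.38 and -2.92 in KO livers, against -2.60, -2.34 and -2.39 in WT livers, so that WT replicate 3 lay with the other WT livers. The difference was -0.73, and -0.71 without WT replicate 3. The ratio of G6pc to Sds was 2.29, 2.03 and 1.60 in KO livers, against 4.31, 3.93 and 2.67 in WT livers, with WT replicate 3 closer to KO replicate 1 than to the other WT livers, and its difference was -1.66, or -2.15 without WT replicate 3.

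Over all pairs of the 9 genes, the ratio separated the groups for 12 of 36, against 23.5% of all pairs of genes on the array; pairs share genes and are not independent. Relative to Pck1, 6 of the 8 others (Fbp1, G6pc, G6pc3, Pcx, Slc2a2 and Slc37a4) were lower in every KO liver than in any WT liver, and Sds and Gpt overlapped. Of all other genes, 43.8% were likewise lower relative to Pck1, and 43.6% relative to Sds. Without WT replicates 1 and 2 the differences were -1.03 for G6pc to Pck1, -0.79 for Slc2a2 to Pck1 and -0.69 for G6pc to Sds, all in the same direction, but with 1 WT liver left.

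**Figure D4:**
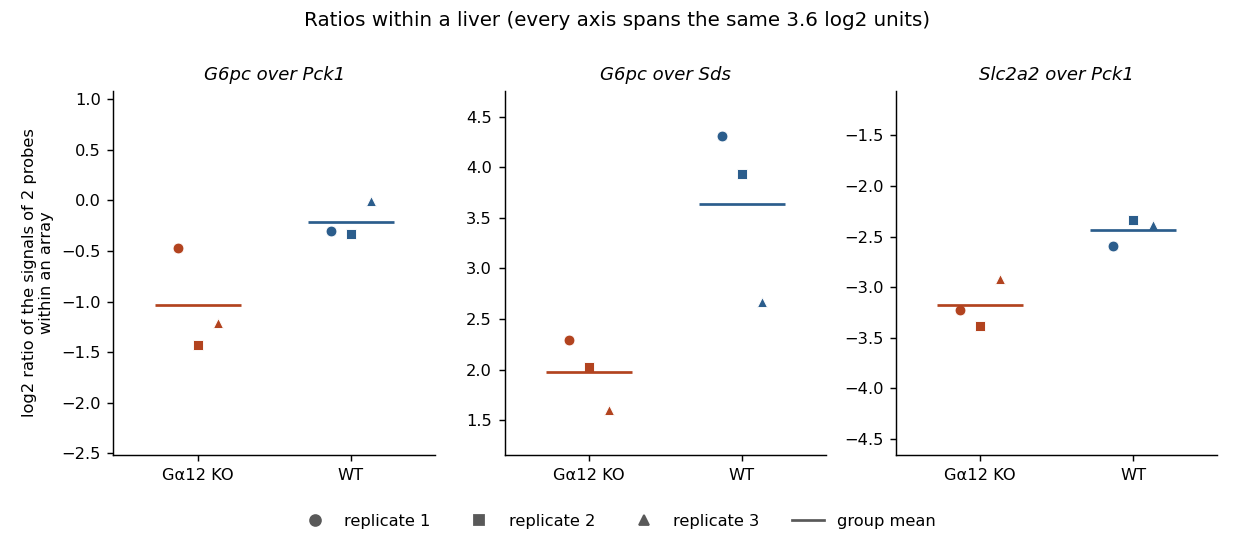
Log2 ratio of the signals of 2 genes within an array in each liver, for Gα12 KO (left, red) and WT (right, blue), with single livers as points and the group mean as a bar. G6pc to Pck1 is at -1.43 to -0.47 in KO and -0.33 to -0.01 in WT, and the other ratios separate the groups as well.

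Over the 6 arrays some of the genes moved together, others moved oppositely and others were unrelated. Over all pairs r ran from -0.945 to 0.948, as a description of livers that share the division above. Fbp1 correlated with the first G6pc3 probe at r = 0.948 and with Pcx at 0.93, and Sds with Fbp1 at -0.945 and with Slc37a4 at -0.928 (n = 6 arrays each). Pck1 and G6pc, which share hormonal inducers, had r = 0.00215. The genes whose profile over the 6 arrays lay closest to that of Pck1, each centred on its own mean, were Elane (largest gap on any array 0.128), Rab4a (0.138), Exosc4 (0.165), Gdf10 (0.175) and Dnajc17 (0.18). Closest to G6pc were Ro60 (0.142), Apon (0.171), Hip1 (0.183), 1700001C19Rik (0.186) and Tapt1 (0.19). None of these 10 is another of the gluconeogenic genes.

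Genes around the pathway were read from the same fit, in 5 lists, and none passed the threshold in any list. Over all genes, 16.6% were lower and 3.98% higher with an unadjusted p under 0.05, the shares against which the counts of each list stand. Of the 20 genes named from the lists for their low p, 19 passed without WT replicate 3, all but Tpi1. The 19 had a limma adjusted p from 0.00356 to 0.0173. In that fit 62.2% of all genes passed, but those were not selected, while the 20 were picked by their p over all livers. A fit that leaves out some livers reuses the others. Counts of the 20 in such fits are therefore not independent of their selection, and show no excess over all genes. Without WT replicates 1 and 2, 0 of the 20 passed (lowest limma adjusted p = 0.596), and 15 kept the sign they had over all livers. Isozymes and relatives of the 10 genes, such as other family transporters, had 9 of 13 genes measured, of which 2 were lower (22.2%) and 0 higher in KO by the unadjusted p, against 16.6% and 3.98% of all genes. Slc37a2, a sugar phosphate transporter among those counted as lower, read -3.53, -3.21 and -3.70 on KO arrays, on none of them well above background. On WT arrays, through which alone it passed the filter, it read -2.08, -1.97 and -2.83. Its difference of -1.18 (limma adjusted p = 0.235), at least 2.27-fold by these means, was -0.38 with normexp background correction (limma adjusted p = 0.376) and -0.64 against WT replicate 3 alone, so the bound holds only for this background correction and these livers. Slc2a9, a urate transporter, was lower in all KO livers, at 0.88, 1.15 and 0.88, against 3.04, 2.71 and 1.31 in WT livers (-1.38, limma adjusted p = 0.235), and differed by -0.34 against WT replicate 3 alone. Slc37a3 differed by -0.86 (limma adjusted p = 0.255) and the insulin-responsive transporter Slc2a4 by -1.05 (limma adjusted p = 0.292). Slc2a4 was well above background on 1 KO array only, and its difference was -0.27 with normexp and 0.27 against WT replicate 3 alone. The list median was -0.79, and 0.17 without WT replicates 1 and 2.

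The steps that gluconeogenesis shares with glycolysis were all measured, 10 of 10. Read by the brightest probe of each gene, 0 reached an unadjusted p under 0.05 in either direction. For Gapdh that probe differed by -0.04, but others of its 7 probes differed by 2.56 (limma unadjusted p = 0.0489) and 2.51 (limma unadjusted p = 0.0304). Against WT replicate 3 alone these were -0.23 and 0.19. The remaining Gapdh probes, at 0.02 to 2.40, did not reach an unadjusted p under 0.05. Malate dehydrogenases lead this list, with Mdh1 at -0.80 (limma adjusted p = 0.25) and Mdh2 at -0.64 (limma adjusted p = 0.336), beside the isomerases Gpi1 at -0.63 (limma adjusted p = 0.33) and Tpi1 at -0.24 (limma adjusted p = 0.566). Without WT replicates 1 and 2, Mdh2 was at 0.27 and Gpi1 at 0.21. The list median was -0.14.

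Of the opposing, glycolytic steps and their controls, 17 of 18 were measured, of which 4 were lower (23.5%) and 0 higher by the unadjusted p, against 16.6% and 3.98% of all genes. The 4 with the lowest p were Pdk1, Hk1, Pdk4 and Gckr. Pdk4, a kinase that holds pyruvate dehydrogenase inactive in fasting and so spares pyruvate, read -0.18, -1.47 and -0.74 in KO livers, against 0.79, 1.18 and 0.08 in WT livers. All KO livers were below all WT livers, by -1.48 on average (SE 0.46, limma adjusted p = 0.235) and by -0.88 against WT replicate 3 alone. Pdk1, a related kinase, read 2.03, 1.69 and 1.70 in KO livers, against 3.11, 2.67 and 2.80 in WT livers, with WT replicate 3 among the WT livers (-1.06, limma adjusted p = 0.235). Hk1, a hexokinase of most tissues, differed by -1.40 (limma adjusted p = 0.235), and by -0.63 against WT replicate 3 alone. With the mean over its probes Hk1 differed by -0.75. Gckr, which holds glucokinase in the nucleus, read 6.28, 6.29 and 6.52 in KO livers, against 8.24, 7.85 and 6.60 in WT livers (-1.20, limma adjusted p = 0.235), and against WT replicate 3 alone differed by -0.24. The list median was -0.23.

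Among genes that supply precursors, 28 of 30 were measured, of which 1 was higher (3.57%) and 2 were lower (7.14%) by the unadjusted p, against 3.98% and 16.6% of all genes. Tat, the tyrosine aminotransferase and a glucocorticoid-induced liver gene, was the one that was higher, at 8.08, 8.16 and 7.92 in KO livers, against 5.72, 6.89 and 7.39 in WT livers. All KO livers were above all WT livers, as for Sds, and the difference was 1.39 (SE 0.46, limma adjusted p = 0.235), or 0.66 against WT replicate 3 alone. Mpc1, a subunit of the mitochondrial pyruvate carrier, read 6.83, 7.16 and 6.91 in KO livers, against 8.40, 8.10 and 7.38 in WT livers. It differed by -0.996 (SE 0.37, limma adjusted p = 0.235), below WT in every KO liver, and by -0.42 against WT replicate 3 alone. The amino acid transporter Slc38a4 differed by -1.13 (limma adjusted p = 0.235), and by -0.34 against WT replicate 3 alone. Slc25a10, the mitochondrial dicarboxylate carrier, differed by 2.19 (limma adjusted p = 0.239), but by -0.34 against WT replicate 3 alone.

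Hormone-signalling and transcriptional regulators of the pathway had 46 of 50 genes measured, of which 11 were lower (23.9%) and 5 higher (10.9%) with an unadjusted p under 0.05. The same shares over all genes were 16.6% lower and 3.98% higher. Creb1 and Nr4a2, counted as lower, were well above background on no KO array and passed the filter only through the WT arrays. Against WT replicate 3 alone, the genes counted as higher differed by -0.07 (Cebpa), 0.06 (Stk11), 0.26 (Prkaa2), 0.73 (Cebpb) and 0.65 (Ep300). Nr4a1, an orphan nuclear receptor that cyclic AMP induces in liver, read 0.15, -0.91 and -0.39 in KO livers, against 2.66, 3.51 and 2.47 in WT livers. All KO livers were far below all WT livers, WT replicate 3 included, and it had the lowest adjusted p of the list (-3.26, SE 0.43, limma adjusted p = 0.116). It differed by -2.85 against WT replicate 3 alone and by -3.47 without it. Pde4b, a phosphodiesterase that breaks down cyclic AMP, read 0.12, -0.21 and -0.58 in KO livers, against 1.47, 1.40 and 1.26 in WT livers, with the WT livers close together (-1.60, SE 0.32, limma adjusted p = 0.228), and differed by -1.49 against WT replicate 3 alone. The glucocorticoid receptor Nr3c1 read 3.78, 3.80 and 4.34 in KO livers, against 6.05, 5.93 and 4.69 in WT livers (-1.58, limma adjusted p = 0.235). Nr3c1 differed by -0.71 against WT replicate 3 alone, and by -1.14 with the mean over its probes. Ep300, a histone acetyltransferase and coactivator, differed by 2.19 (limma adjusted p = 0.235), though it was well above background on 1 WT array alone. It differed by 0.98 with normexp and by 0.65 against WT replicate 3 alone. The list median was -0.58, and -0.04 without WT replicates 1 and 2.

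**Figure D5:**
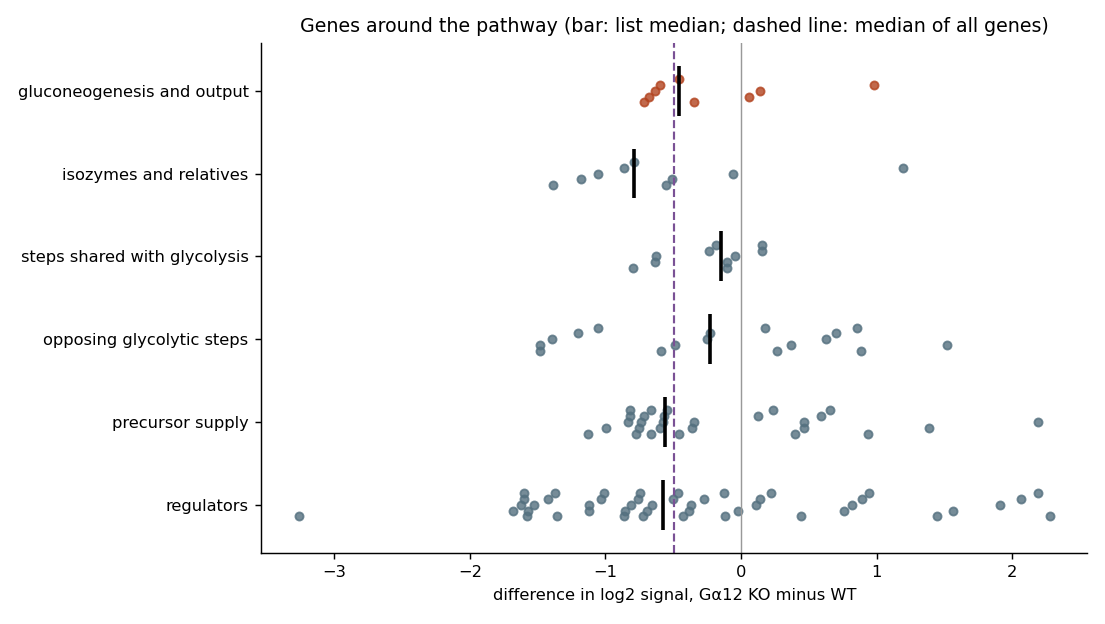
Difference in log2 signal, Gα12 KO minus WT, of each measured gene of the gluconeogenesis and output genes and of 5 lists around the pathway (1 point per gene, with a bar at the list median). The dashed line is the median of all genes at -0.49. The list medians run from -0.79 to -0.14, and Nr4a1 is the point at the far left at -3.26.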

How the data were processed

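Per the submitters' processing notes, the 6 Agilent 1-colour arrays were processed in Agilent Feature Extraction (version 10.7.3.1). The deposited scanner files hold each spot's intensity on a linear scale, background-subtracted by that software, with flags (0 or 1) for background, saturation and outliers, per the file headers. The authors also deposited a matrix of log2 values, which differed from the log2 processed intensity by a single offset per array, so its centring is unknown and its direction and scale are not. It was used only as an alternative.

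Control and outlier-marked spots were left out, log2 intensity was scaled to the array's 75th percentile, and the spots of a probe were averaged. A probe was kept if 3 or more arrays had a spot of it well above background, 23132 of 55681. Probes were named through RefSeq GRCm38.p6 accessions (26762 matched), and a gene is its kept probe with the highest mean. The groups were compared by lmFit and eBayes of limma (3.58.1, under R 4.3.3), with Benjamini-Hochberg adjustment over all kept probes. Probes outside the filter were read from a fit over all probes. The script was tested on simulated data. No spot was saturated. The number of arrays limits the precision. Each array was taken as 1 of the 3 mice that the labels give for each group, with groups and replicate numbers from the titles.

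The rule for named genes took all 10 glucose genes with every probe, Gna12, Gapdh, Actb, the 4 genes with the lowest p in each list and the 5 genes most like Pck1 and like G6pc. Actb had 1 probe and differed by -0.96 (limma adjusted p = 0.239). Members and lists were chosen with earlier results of these data known. Alternatives were another background correction, scaling, filter, probe rule and variance model, the deposited matrix, a replicate block and fewer arrays. The array design's files name another mouse build than RefSeq GRCm38.p6, whose table gave all coordinates, and those are of genes, not probes.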

Additional observations from a re-analysis of the deposited data

How the results depend on the processing

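With 3 arrays a group, the widest 95% interval among the 9 genes ran from -1.77 to 0.34 (Slc37a4), so differences of that size could not be told from 0. Replicate numbers are shared by the groups, and the samples were treated as unpaired. The deviations of same-numbered arrays correlated at -0.13, 0.01 and -0.04, and those of differently numbered arrays at -0.20 to 0.22. So few arrays cannot decide whether the samples were paired. With the replicate number as a block, 0 probes passed and the lowest adjusted p of the 9 genes was 0.277 (limma).

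All probes passing the threshold numbered 0, but 1 with normexp on the spot medians, 2 when a probe had to be above background on all 6 arrays, 7 with the mean over a gene's probes, and 0 to 13123 when 1 array was left out, the 13123 without WT replicate 3. Leaving out 1 array gave 0 to 5 of the 9 genes past the threshold, 0 to 6 lower at an unadjusted p below 0.05, 4 to 7 with groups that did not overlap (5 without WT replicate 2, against 28.3% of all genes, and 7 without WT replicate 3, against 78.8%), and a median difference from -0.76 to -0.23. The count of genes with groups that did not overlap, 4 here, was 2 with normexp (25.7% of all genes), 1 with quantile normalization, namely Fbp1 (25.5%), and 2 when scaled to the 75th percentile of probes above background on all arrays (23.3%), a setting chosen after seeing the data. With the array median the 3 were Slc2a2, lower, and Gpt and Sds, higher (22.7% of all genes). Without WT replicates 1 and 2 the median difference was 0.0915.

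Scaling moved all genes: their median difference of -0.49 was -0.38 with normexp, -0.36 with the array median, -0.21 with quantile normalization and -0.02 with the added percentile, and the share lower among genes at an unadjusted p below 0.05 was 80.6% here, 69.5% with the array median, 70.2% with the block, 59.1% with the added percentile and 42.6% with no filter on dim probes. Signs turned for Gpt (-0.00208 in the deposited matrix, -0.0259 without WT replicate 1, the lowest of -0.0259 to 0.116 with 1 array left out), Pck1 (-0.00856 without KO replicate 2, -0.0543 without WT replicate 3, over a range of -0.0543 to 0.35 with 1 array left out), G6pc3 (0.0266 with the mean over probes, 0.37 without WT replicates 1 and 2, 0.12 with the added percentile), Fbp1 (0.18 without WT replicates 1 and 2, 0.0176 with the added percentile) and Slc37a4 (0.0915 without WT replicates 1 and 2). Of the named list genes, Tpi1 turned to 0.26 with quantile normalization, 0.49 with the mean over probes and 0.24 with the added percentile, and without WT replicates 1 and 2 Slc37a3 was 0.0482, Slc2a4 0.27, Slc25a10 -0.34, Gpi1 0.21 and Mdh2 0.27. The ratios of G6pc and Slc2a2 to Pck1 and of G6pc to Sds were lower in KO in all 17 settings run. Settings that shift an array by 1 constant, or change only the filter, variance model or block, leave these ratios unchanged. They had also been chosen because they separate the groups, so the count is no test of them. The cause of the changes between settings was not tested.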
